A study of Mus musculus with 12 samples.

Results

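Of the ADAMTS family of matrix proteases, 8 genes (Adamts1, Adamts2, Adamts4, Adamts5, Adamts9, Adamts10, Adamts12 and Adamts15) were described in RNA sequencing counts of the mouse thoracic aorta. They were taken by symbol, and all 8 were found among the 27933 genes of the count table. All 8 passed the filter on low counts, which left 14621 genes for testing. The members were chosen with values from these same libraries in view, and which comparison guided the choice is not recorded. Each comparison of the 8 genes is therefore given as a description, and adjusted p-values only place them among all genes tested.

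ADAMTS proteins are secreted zinc metalloproteases that carry thrombospondin repeats and act on the extracellular matrix. Several cut the large proteoglycans versican and aggrecan, others trim procollagen or associate with fibrillin microfibrils, and the tissue inhibitor TIMP3 is their best known inhibitor. In the aorta, turnover of versican and aggrecan by these proteases shapes the medial matrix, and loss of Adamts1 or Adamts5 is known to alter the aortic wall in mice.

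The 12 libraries fall into 4 groups of 3, all of the C57BL/6J strain. Wild-type (WT) mice breathed room air (libraries 8, 9 and 10) or inhaled nicotine vapor (6, 11 and 12). Mice labelled as alpha7-nAChR knockouts (KO), which lack a nicotinic acetylcholine receptor encoded by Chrna7, breathed room air (1, 2 and 7) or nicotine vapor (3, 4 and 5). Exposure began at 5 months of age and lasted 12 weeks, and aortas cleaned of fat were taken at 8 months. The knockout is given without a tissue-restricted promoter or Cre, the deleted part of the gene is not stated, and whether each library is 1 animal is not stated, so the p-values measure spread between libraries that may be partly technical.

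Library totals ran from 10240031 to 12628323 counts. Chrna7 had 9 to 37 counts in WT and 8 to 28 in KO libraries, and its KO against WT log2 fold change was -0.36 ± 0.45 (SE) in air, so these counts do not check the label. All 9 smooth muscle markers had counts, with a summed level of 24997 to 50626 counts per 1000000 scaled counts (CPM) per library. Markers of other tissues were uneven, as 6 hepatocyte genes summed to 20.5 to 2390 CPM and 8 skeletal muscle genes to 8.74 to 209 CPM, both with their maximum in KO nicotine 3. Mesothelial markers summed to 75.8 CPM in KO air 7 and 2.66 to 40.5 CPM elsewhere. Scaling used trimmed mean (TMM) library factors. In bulk tissue, fewer cells of a type and less RNA per cell cannot be told apart.

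Promoter sequence is shown for Adamts1 and Adamts9, the members whose nicotine and air libraries of KO mice did not overlap upward. The RefSeq promoter table (GRCm38.p6) matched 4 of the 8 members, Adamts1, Adamts2, Adamts9 and Adamts12, and the 250 bases before the start site are printed 5′ to 3′ on the gene's strand. Capitals mark a TATA box (TATAAA) or a GC box (GGGCGG, or its reverse complement CCGCCC), each searched on both strands.
Adamts1, chr16:85803114-85803363, minus strand: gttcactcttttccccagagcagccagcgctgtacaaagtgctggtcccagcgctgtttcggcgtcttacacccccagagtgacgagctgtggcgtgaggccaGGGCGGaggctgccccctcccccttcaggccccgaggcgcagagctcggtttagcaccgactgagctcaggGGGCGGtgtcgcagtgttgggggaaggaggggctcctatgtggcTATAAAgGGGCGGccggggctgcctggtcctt
Adamts9, chr6:92943535-92943784, minus strand: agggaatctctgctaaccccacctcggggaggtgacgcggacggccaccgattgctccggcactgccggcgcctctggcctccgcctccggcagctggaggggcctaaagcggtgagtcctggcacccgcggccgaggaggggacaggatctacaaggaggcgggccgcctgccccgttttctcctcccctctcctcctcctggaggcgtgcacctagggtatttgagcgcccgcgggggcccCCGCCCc

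The Adamts1 window held 1 TATA box and 3 GC boxes, and the Adamts9 window held 1 GC box and no TATA box. Of 32851 promoter windows of this length, 12.4% held a TATA box and 32.7% a GC box. Neither window held the cyclic AMP response element TGACGTCA (in 1.55% of windows), the AP-1 site TGANTCA (6.75%), the E-box CACGTG (6.02%) or a CArG box (1.47%). The NFAT core GGAAA, in 55.6% of windows, had 1 match in Adamts1 and none in Adamts9. The bases just after the RefSeq start site were found in a GENCODE M21 transcript for Adamts1 and in none for Adamts9, so the Adamts9 start site rests on RefSeq alone here. A match is only a run of letters.

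Adamts1, a versican- and aggrecan-cleaving protease that is known to be induced by inflammatory stimuli, was the most abundant of the 8 per length of exon. Its levels in WT air 8, 9 and 10 were 279, 396 and 505 CPM, and in WT nicotine 6, 11 and 12 they were 517, 706 and 823 CPM. KO air 1, 2 and 7 had 278, 213 and 249.9 CPM, and KO nicotine 3, 4 and 5 had 391, 371 and 384 CPM. In both genotypes the nicotine libraries lay above the air libraries, by a narrow margin in WT, where the lowest nicotine library stood just over the highest air library. The 3 KO nicotine libraries were close together, with a mean of 382 ± 10.2 CPM, where the WT air mean was 393 ± 113 CPM (SD, n = 3 each), so KO nicotine libraries stood at the level of WT air.

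With nicotine, Adamts1 was 1.73-fold higher in WT (log2 fold change 0.79 ± 0.21, SE) and 1.55-fold higher in KO (0.63 ± 0.21). Group means moved from 393 ± 113 to 682 ± 155 CPM in WT and from 247 ± 32.4 to 382 ± 10.2 CPM in KO (SD, n = 3 each). Averaged over genotypes the log2 fold change was 0.71 ± 0.15. The difference between genotypes, KO minus WT, was -0.17 ± 0.29. Adamts1 did not pass edgeR's threshold of an adjusted p of 0.05 over all genes, with 0.270 in WT, 0.878 in KO, 0.244 for the average and 0.999 for the difference.

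The call of Adamts1 differed between analyses. DESeq2 on all 12 libraries gave an adjusted p of 0.0336 in WT, 0.743 in KO and 0.00273 for the average. In the authors' deposited table for WT its adjusted p was 0.104 with a log2 fold change of 0.80 and a standard error of 0.25. The authors' deposited table for KO gave an adjusted p of 0.0294, with 0.63 and a standard error of 0.14, which placed Adamts1 among 7 of 17223 genes (0.0406%) under 0.05 there, and none of the other 7 members was under 0.05 in either of the authors' deposited tables. The log2 fold change itself stayed between 0.63 and 1.06 in WT and between 0.53 and 0.74 in KO over the alternatives run.

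Adamts1 was also lower in KO than in WT within each exposure, with no overlap of libraries. In air the highest KO library had 277.64 CPM and the lowest WT library 279.45 CPM, so the groups were barely separated. The log2 fold change was -0.67 ± 0.21 in air and -0.84 ± 0.21 in nicotine (edgeR adjusted p = 0.995 and 0.331). DESeq2 gave 0.397 and 0.0245. Library numbers nearly separate the genotypes (KO 1 to 5 and 7, WT 6 and 8 to 12), and an effect of whatever they stand for cannot be told apart from genotype.

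Other measures also differed between the air and nicotine groups, some in WT and some in both genotypes. Immediate early genes respond rapidly to stimuli. All 22 on the list had log2 fold changes above 0 with nicotine in WT (median 0.87), and 12 of 22 did in KO (median 0.01). Their score, a mean of log2 CPM, ran from 5.31 to 6.66 in the WT air libraries and from 6.48 to 7.22 in those of WT nicotine. In KO it ran from 5.67 to 6.58 with air and from 5.75 to 6.53 with nicotine. Macrophage markers summed to 233 to 258 CPM with air and 393 to 515 CPM with nicotine in WT, and to 235 to 369 and 296 to 434 CPM in KO. Neutrophil markers summed to 4.35 to 20.9 CPM with air and 15.2 to 71.3 CPM with nicotine in WT. Of the 5 tested neutrophil genes, 5 were above 0 in WT (median 2.24) and 1 in KO (median -0.36). With nicotine in WT, DESeq2 called 1 of these 5 (S100a9), 3 of 10 macrophage markers and 4 of 22 immediate early genes, beside 0.787% of all genes. In the same comparison it called 0 of 9 smooth muscle and 0 of 9 adipocyte markers. The immediate early score rose in the order of Adamts1 in WT air 8, 9 and 10 (5.31, 5.60 and 6.66). In WT nicotine 6, 11 and 12 the score was 7.09, 7.22 and 6.48, which is not the order of Adamts1 there. WT nicotine 6 had the lowest Adamts1 of its group (517 CPM) and the highest macrophage (515 CPM) and neutrophil (71.3 CPM) sums. All 9 smooth muscle markers were below 0 with nicotine in both genotypes (medians -0.46 and -0.35), and all 9 adipocyte markers were above 0 (medians 0.73 and 0.60). Adipocyte markers summed to 1039 to 4194 CPM with air and 3631 to 4574 CPM with nicotine in WT, and to 2242 to 4306 and 2381 to 6642 CPM in KO. With the adipocyte covariate the Adamts1 value was 1.06 in WT and 0.74 in KO. In KO it was 0.62 without KO nicotine 3 and 0.64 without KO air 7, the libraries with the most liver, muscle or mesothelial signal. The part of the other shifts in the Adamts1 values was not tested.

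**Figure D1:**
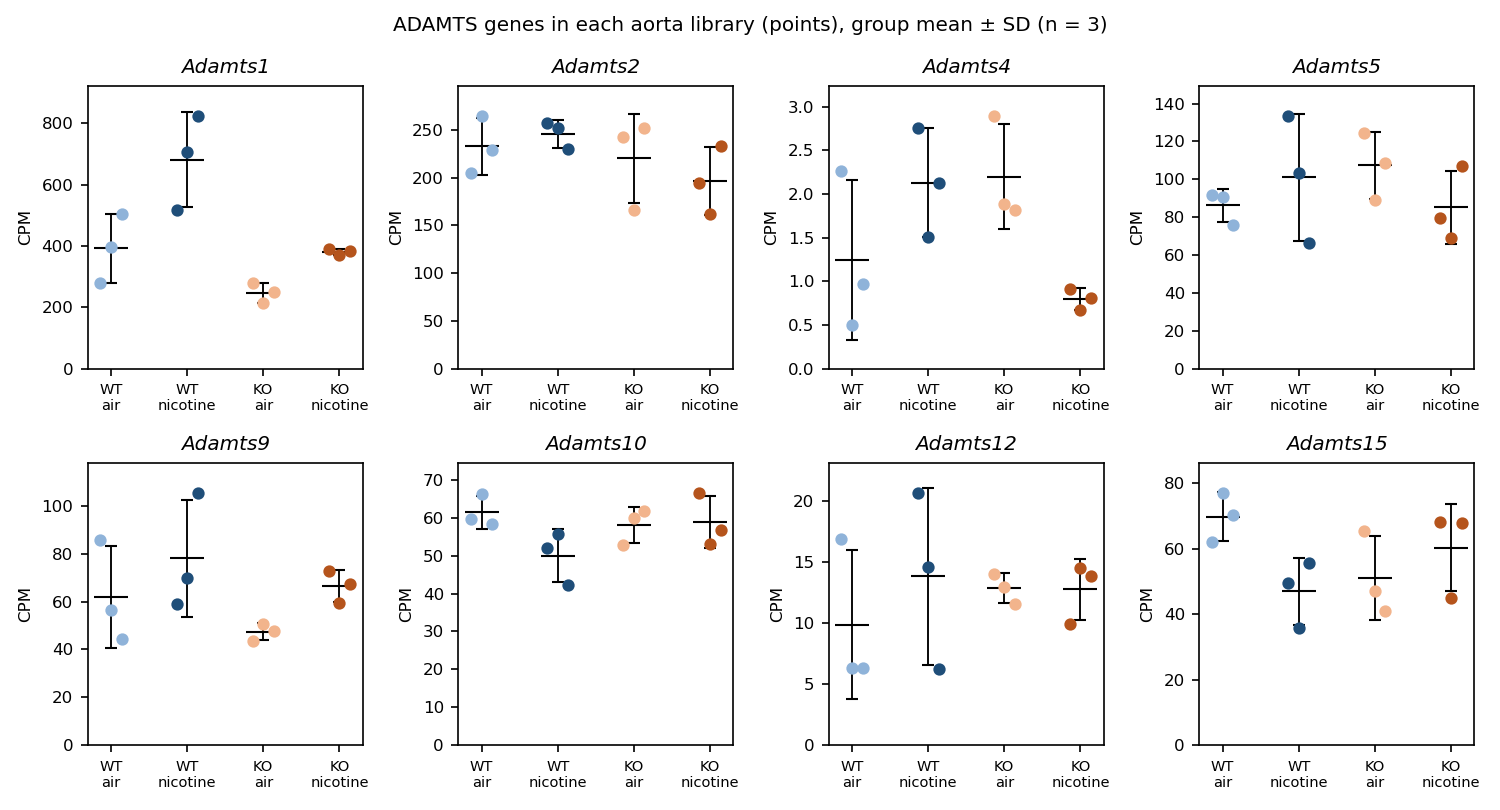
Level of each of the 8 ADAMTS genes in CPM (y axis, from 0) in the 4 groups (x axis). Points are libraries in order of library number and black bars are the group mean ± SD, n = 3. Adamts1 has its nicotine libraries above its air libraries in both genotypes, while Adamts4 has its lowest group mean in KO nicotine, 0.798 CPM.

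Among the 8 members, 0 passed edgeR's threshold in any of the 6 comparisons, where 0.0205% of all genes passed for nicotine in WT, 0.00684% for KO against WT in nicotine and 0% in each of the other 4. At an unadjusted p under 0.05 there were 3 members with nicotine in WT (Adamts1, Adamts10 and Adamts15), beside 9.84% of all genes, and 2 with nicotine in KO (Adamts1 and Adamts4), beside 4.58%. There were 2 for the difference between genotypes (Adamts4 and Adamts15, beside 4.43%), 1 for KO against WT in air (Adamts1, beside 4.36%), 2 in nicotine (Adamts1 and Adamts4, beside 8.34%) and 2 for the average (Adamts1 and Adamts9, beside 10.9%). DESeq2 called 1 member, Adamts1, in WT (0.787% of all genes called), for KO against WT in nicotine (0.595%) and for the average (0.657%). It called none with nicotine in KO (0% of all genes), for the difference (0.0616%) or for KO against WT in air (0.0889%). The median log2 fold change of the 8 was 0.28 with nicotine in WT and 0.00 in KO, beside 0.00 and 0.01 over all genes. In WT 6 members were above 0 and 2 below, and in KO 4 and 4, beside 49.4% and 51.5% of all genes above 0. The KO values of Adamts10 (0.02 ± 0.13) and Adamts12 (-0.01 ± 0.44) were too near 0 to give a direction.

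Groups without overlap were also counted. With nicotine in WT, 1 member (Adamts1) lay wholly higher and 2 (Adamts10 and Adamts15) wholly lower, beside 7.13% and 6.05% of all genes. In KO, 2 (Adamts1 and Adamts9) lay wholly higher and 1 (Adamts4) wholly lower, beside 5.13% and 5.55%. For KO against WT in air 1 member, Adamts1, lay wholly lower (6.06% of all genes) and 0 higher (5.75%). In nicotine 2 lay wholly lower, Adamts1 and Adamts4 (5.59%), and 0 higher (5.8%). The choice of members may have used these contrasts, so nothing is read from the counts.

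Adamts4 and Adamts5 encode the 2 main aggrecanases, proteases named for cutting the cartilage proteoglycan aggrecan. Adamts4 was scarce, with 26, 6 and 12 raw counts in WT air 8, 9 and 10 and 28, 18 and 26 in WT nicotine 6, 11 and 12. KO air 1, 2 and 7 had 34, 22 and 22 counts, and KO nicotine 3, 4 and 5 had 10, 7 and 10. The KO nicotine libraries were all below the KO air libraries, while the WT groups overlapped, WT air 8 lying within the range of WT nicotine.

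The log2 fold change of Adamts4 with nicotine was -1.45 ± 0.54 in KO and 0.77 ± 0.52 in WT, and the difference between genotypes was -2.22 ± 0.75. That difference had an unadjusted p of 0.0106 and an edgeR adjusted p of 0.999, so it was not distinguishable from 0 over all genes. Without WT air 8 the WT value became 1.55 and the difference -2.99. Counts of this size leave the fold uncertain.

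Adamts5 had 91.8, 90.7 and 76.1 CPM in WT air 8, 9 and 10 and 133, 103 and 66.3 CPM in WT nicotine 6, 11 and 12. The gene had 125, 89.1 and 109 CPM in KO air 1, 2 and 7. KO nicotine 3, 4 and 5 had 79.4, 69.2 and 107 CPM. The groups overlapped in both genotypes, and WT nicotine alone spanned both the lowest and the highest library of all 12. Log2 fold changes with nicotine were 0.23 ± 0.23 in WT and -0.34 ± 0.23 in KO. Leaving out WT nicotine 6 turned the WT value to -0.01. Adamts1 and Adamts5 are direct neighbours among protein-coding genes in the RefSeq annotation, and the 2 had opposite signs in KO and for KO against WT in air.

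Adamts9 and Adamts15 also encode versican- and aggrecan-cleaving proteases. Adamts9 stood at 85.7, 56.4 and 44.2 CPM in WT air 8, 9 and 10 and 58.9, 69.9 and 106 CPM in WT nicotine 6, 11 and 12. The gene stood at 43.6, 50.6 and 47.9 CPM in KO air 1, 2 and 7. KO nicotine 3, 4 and 5 stood at 72.8, 59.5 and 67.5 CPM. The KO groups were apart and the WT groups overlapped through WT air 8. Its log2 fold change with nicotine was 0.49 ± 0.24 in KO and 0.33 ± 0.24 in WT (edgeR adjusted p = 0.878 and 0.680), and 0.41 ± 0.17 averaged over genotypes (0.415). The WT value was 0.67 without WT air 8 and 0.06 without WT nicotine 12.

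Adamts15 went the other way in WT. WT air 8, 9 and 10 had 62.1, 77.0 and 70.1 CPM, and WT nicotine 6, 11 and 12 had 49.4, 35.8 and 55.7 CPM, so each nicotine library lay below each air library. KO air 1, 2 and 7 had 65.4, 46.9 and 40.8 CPM and KO nicotine 3, 4 and 5 had 68.2, 44.8 and 67.7 CPM, which overlapped. Log2 fold changes were -0.57 ± 0.21 in WT and 0.24 ± 0.21 in KO, and the difference between genotypes was 0.81 ± 0.30 (unadjusted p = 0.0185, edgeR adjusted p = 0.999). The WT value was -0.29 in a fit that held an adipocyte marker score as a covariate. Its neighbour in the RefSeq annotation, Adamts8, another versican- and aggrecan-cleaving protease, had -0.29 ± 0.30 in WT and -0.16 ± 0.30 in KO, with overlapping groups.

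Adamts2 encodes the protease that removes the N-propeptide of fibrillar procollagens and was the next most abundant member after Adamts1 per length of exon. WT air 8, 9 and 10 had 205, 264 and 229 CPM, and WT nicotine 6, 11 and 12 had 257, 252 and 229.6 CPM. KO air 1, 2 and 7 had 242, 166 and 252 CPM, and KO nicotine 3, 4 and 5 had 195, 162 and 234 CPM. All groups overlapped. Its log2 fold change with nicotine was 0.08 ± 0.17 in WT and -0.16 ± 0.17 in KO, each smaller than its standard error, and the WT value was 0.38 in the fit with the adipocyte covariate.

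Adamts10 encodes a fibrillin-associated member. It had 59.6, 66.4 and 58.2 CPM in WT air 8, 9 and 10 and 52.1, 55.6 and 42.1 CPM in WT nicotine 6, 11 and 12. The gene had 52.8, 59.8 and 61.9 CPM in KO air 1, 2 and 7. KO nicotine 3, 4 and 5 had 66.6, 53.1 and 56.9 CPM. WT nicotine was wholly below WT air, by a log2 fold change of -0.30 ± 0.13 (edgeR adjusted p = 0.484), and the KO groups overlapped at 0.02 ± 0.13. Across the 12 libraries its highest level was 1.58 times its lowest, the narrowest span of the 8.

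Adamts12, which like Adamts7 can cut cartilage oligomeric matrix protein (COMP), had 16.9, 6.34 and 6.29 CPM in WT air 8, 9 and 10 and 20.7, 14.6 and 6.21 CPM in WT nicotine 6, 11 and 12. KO libraries were even, at 14.03, 12.9 and 11.6 CPM in air (1, 2 and 7) and 9.89, 14.5 and 13.8 CPM in nicotine (3, 4 and 5). Each WT group held both high and low libraries. The log2 fold change with nicotine was 0.49 ± 0.44 in WT and -0.01 ± 0.44 in KO, and the WT value ranged from 0.09 to 1.15 when 1 library at a time was left out.

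**Figure D2:**
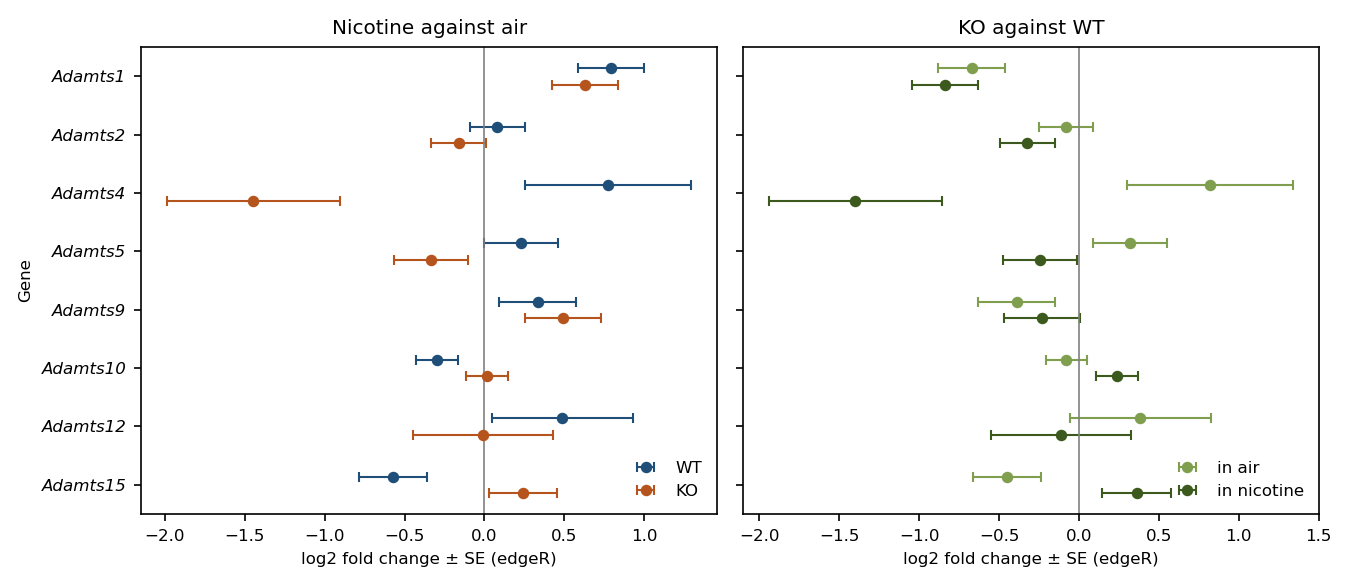
Log2 fold change ± SE from edgeR (x axis) for each of the 8 genes (y axis), with nicotine against air in WT and KO on the left and KO against WT in air and nicotine on the right. Adamts1 lies above 0 with nicotine in both genotypes (0.79 and 0.63) and below 0 for KO against WT in both exposures (-0.67 and -0.84), and the widest error bars belong to Adamts4.

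Levels were compared between genes per kilobase of exon, with exon lengths of the GENCODE M21 annotation, which may differ from the annotation the authors counted on. Adamts1 had a median of 73.0 CPM per kilobase (40.2 to 155 over 12 libraries) and Adamts2 had 24.8 (17.4 to 28.3), so each library of Adamts1 lay above each library of Adamts2. Adamts2 in turn lay wholly above Adamts5 (median 8.46). Adamts5, Adamts10 (6.97), Adamts15 (5.68) and Adamts9 (3.93) overlapped with their neighbours in this order, the order holding in 9, 11 and 10 of 12 libraries. Adamts12 (1.22) lay wholly below Adamts9, and Adamts4 (0.346) was lowest in each of 12 libraries.

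Of the 11 other Adamts genes in the table, 7 passed the low-count filter. Adamts13, Adamts16, Adamts18 and Adamts19 did not, with 0 to 15 counts per library. None of the 7 tested genes passed edgeR's threshold in any comparison, and with nicotine 1 of them had an unadjusted p under 0.05 in WT, beside 9.84% of all genes, and 0 in KO, beside 4.58%. DESeq2 called 0 of the 7 in any comparison. Their median log2 fold change with nicotine was -0.29 in WT and -0.01 in KO. The 3 named by rule were Adamts6, a fibrillin-associated protease (17.8 ± 3.28 to 11.6 ± 4.58 CPM in WT, log2 fold change -0.62 ± 0.28), Adamts3, a procollagen-processing protease (2.79 ± 0.485 to 4.27 ± 0.568 CPM in KO, 0.61 ± 0.30), and Adamts7 (-0.42 ± 0.35 in WT, SD and n = 3 for each mean).

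The Adamts-like genes encode relatives that lack the protease domain, and all 7 in the table were tested, with 0 called by edgeR or DESeq2 in any comparison. Thsd4, also called Adamtsl6, was the most abundant per length, at a median of 42.0 CPM per kilobase, and had -0.36 ± 0.23 in WT and -0.16 ± 0.23 in KO. Adamtsl1 had 15.9, 18.1 and 15.8 CPM in WT air 8, 9 and 10 and 23.8, 27.8 and 24.6 CPM in WT nicotine 6, 11 and 12, with no overlap. Its log2 fold change was 0.61 ± 0.17 in WT and 0.14 ± 0.16 in KO (edgeR adjusted p = 0.270 and 0.904). Adamtsl5 had -0.41 ± 0.19 in WT and -0.22 ± 0.19 in KO, and Adamtsl2, a fibrillin-binding member, had -0.31 ± 0.33 in WT and 0.75 ± 0.34 in KO.

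**Figure D3:**
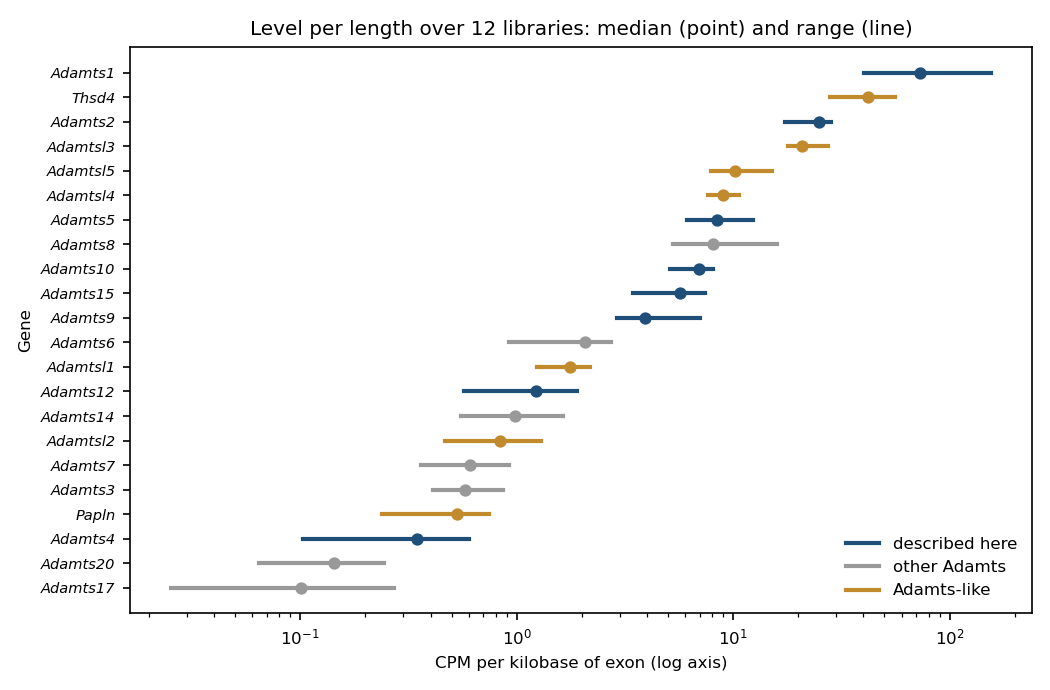
CPM per kilobase of exon on a log axis (x axis) for the tested ADAMTS and ADAMTS-like genes (y axis), as the median over 12 libraries (point) and the range (line). Adamts1 has the highest median, 73.0, and Adamts4 the lowest of the 8 described genes, 0.346.

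The matrix targets and regulators of these proteases were read as 4 lists, and 0 of their genes passed edgeR's threshold in any comparison. DESeq2 called 1 of them, Thbs1, for KO against WT in nicotine, where it called 0.595% of all genes. Thbs1 was lower in KO there, with an edgeR log2 fold change of -1.03 ± 0.29 (edgeR adjusted p = 0.440). With nicotine in WT the unadjusted p was under 0.05 for 1 proteoglycan, 1 collagen-processing gene, 3 other targets and 2 regulators, 7 of 34 tested in all, beside 9.84% of all genes. With nicotine in KO it was under 0.05 for 1 regulator and for 0 genes of each other list, beside 4.58% of all genes. Of 8 tested proteoglycans and link proteins, 3 were above 0 with nicotine in WT (median -0.26) and 2 in KO (median -0.10). Versican (Vcan), a proteoglycan of the arterial wall that ADAMTS1 cuts, had -0.38 ± 0.24 in WT and 0.30 ± 0.24 in KO. Aggrecan (Acan) had 25.8, 62.9 and 73.2 CPM in WT air 8, 9 and 10. WT nicotine had 21.5, 25.7 and 35.4 CPM, which overlapped through WT air 8, and its log2 fold change was -0.97 ± 0.48, with 0.37 ± 0.47 in KO and a difference of 1.34 ± 0.68 (edgeR adjusted p = 0.999). The link protein gene Hapln1, whose product ties these proteoglycans to hyaluronan, had -0.50 ± 0.23 in WT and -0.20 ± 0.23 in KO, and decorin (Dcn) had 0.28 ± 0.16 and -0.10 ± 0.16.

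A further list held other matrix proteins that ADAMTS proteases cut or bind. All 8 of its tested genes (Comp, Thbs1, Fn1, Nid1, Nid2, Fbn1, Fbln1 and Fbln2) were above 0 with nicotine in WT, with a median of 0.33 beside 0.00 over all genes, and 4 of 8 in KO, with a median of 0.03. Nid1, a basement membrane protein that ADAMTS1 can cut, had 242, 220 and 208 CPM in WT air 8, 9 and 10 and 381, 282 and 306 CPM in WT nicotine 6, 11 and 12, without overlap. Its log2 fold change was 0.53 ± 0.15 in WT and 0.16 ± 0.15 in KO (edgeR adjusted p = 0.278 and 0.885). Fbln2 had 0.52 ± 0.17 in WT and 0.21 ± 0.17 in KO, and Thbs1, the gene of thrombospondin 1, had 0.89 ± 0.29 and 0.18 ± 0.29. All 10 fibroblast markers were above 0 in WT as well, with sums of 5088 to 6311 CPM in air and 6395 to 7518 CPM in nicotine, and 1 of 10 was in KO. DESeq2 called 0 of the 10 fibroblast markers with nicotine in either genotype. The part of fibroblast content in these values was not tested.

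The 8 genes of fibrillar collagens and their processing, the setting in which Adamts2 works, had a median of 0.26 with nicotine in WT (6 above 0) and -0.15 in KO (1 above 0). Col1a1 had 0.37 ± 0.25 in WT and -0.18 ± 0.25 in KO, and the procollagen enhancer genes Pcolce and Pcolce2 had 0.31 ± 0.16 and 0.31 ± 0.14 in WT, and -0.15 ± 0.16 and 0.01 ± 0.14 in KO.

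Inhibitors, the clearance receptor and activating convertases had no common direction. Of their 10 tested genes 5 were above 0 with nicotine in WT (median 0.01, range -0.11 to 2.86) and 7 in KO (median 0.15, range -0.24 to 1.69). The WT maximum was the scarce inhibitor gene A2m (2.86 ± 1.17), with groups apart. Timp3 had -0.07 ± 0.16 in WT and 0.08 ± 0.16 in KO, and the endocytic receptor gene Lrp1, which clears several ADAMTS proteases, had 0.04 ± 0.18 and -0.02 ± 0.18. Furin, a convertase that removes the propeptide, had -0.11 ± 0.10 and 0.08 ± 0.10. The related convertase gene Pcsk6 averaged 82.0 ± 7.44 CPM with air and 106 ± 6.12 CPM with nicotine in WT (SD, n = 3 each). Its log2 fold change there was 0.38 ± 0.13. Pcsk6 had 0.22 ± 0.13 in KO. Timp4 had 1.0 ± 0.42 in KO and -0.09 ± 0.42 in WT, and Timp1 had 0.59 ± 0.37 in WT and 0.22 ± 0.36 in KO.

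**Figure D4:**
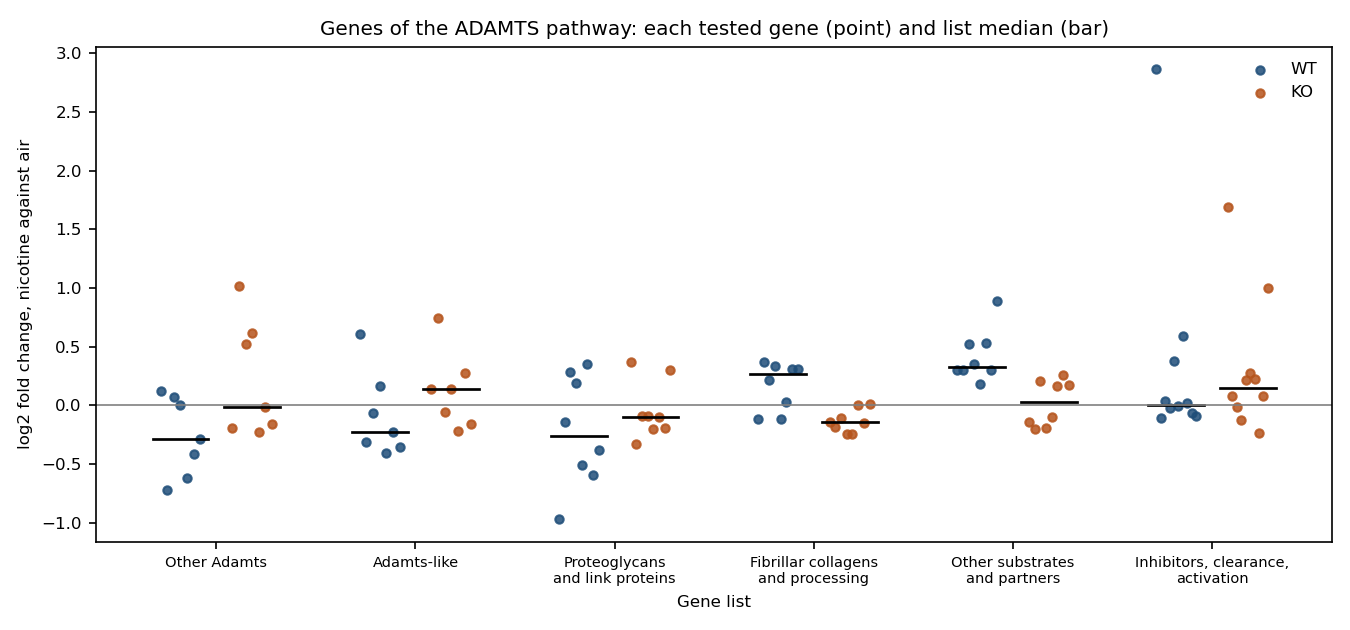
Log2 fold change with nicotine against air (y axis) for each tested gene of 6 lists (x axis) in WT and KO, with bars at the list medians. All 8 points of the other substrates lie above 0 in WT, and the point at 2.86 is A2m, which had at most 2.57 CPM in any library.

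Over the 12 libraries, log2 CPM of Adamts1 was compared with that of the other 7 members and with 13 marker scores, 20 relations in all. None passed after Benjamini-Hochberg adjustment (lowest adjusted p = 0.415, permutation test). The permutations shuffled libraries across the 4 groups, so their p-values also reflect differences between group means. The choice of members may have used those differences, so the p-values are given as description. The relation with the immediate early score had Pearson r = 0.63 (permutation p = 0.0287, adjusted 0.418) and Spearman rho = 0.52 (permutation p = 0.0888, adjusted 0.415). Without WT nicotine 11 and 12, the libraries farthest from the Adamts1 median, r was 0.55. The neutrophil score had rho = 0.61 (permutation p = 0.0403, adjusted 0.415) and r = 0.49 (permutation p = 0.104, adjusted 0.418), and r = 0.41 without the same libraries. Adamts9 had r = 0.51 with Adamts1 (permutation p = 0.0894, adjusted 0.418) and rho = 0.45 (0.146, adjusted 0.415), and r fell to 0.09 without the same libraries, so that relation rests on them. After each group's mean was subtracted, r was 0.49 for the immediate early score and turned to -0.22 for Adamts9 and -0.15 for the neutrophil score. It was -0.82 for Adamts12 and -0.68 for the endothelial score, which had been -0.33 and -0.13 before. These centred values are given without a test.

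Among 10503 genes with a mean of at least 5 CPM, those whose log2 CPM over 12 libraries was most like that of Adamts1 included Peli1 (Pearson r = 0.93), Son (0.93), Net1 (0.92), Nedd9 (0.92), Coq10b (0.91), Arid5b (0.91) and Bcl2l1 (0.90). All points share their library's handling and scaling, and the highest of 10503 values of r is high by selection. Of these, Peli1 had a log2 fold change with nicotine of 0.66 ± 0.18 in WT and 0.49 ± 0.18 in KO, and Net1 had 0.39 ± 0.17 and 0.49 ± 0.17. The genes most like Adamts9 were Ppid (0.91), Nol8 (0.90), Zfp954 (0.89), Lman2l (0.89) and Sbno1 (0.89). For the scarce Adamts4 they were Enpp3 (0.84), Plau (0.81), Nsg1 (0.80), Atf1 (0.79) and Atf5 (0.78).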

How the data were processed

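RNA of thoracic aortas was isolated with a column kit and made into SMART-Seq v4 libraries, per the labels' protocols. The authors deposited raw read counts per gene symbol, made with HTSeq on mouse build mm9 per the submitters' processing notes. For the aligner, annotation, strand setting and versions, the entry is: not given in the sources used here. The authors also deposited, per the file headers, a table for each genotype with a mean scaled count (a signal), a log2 fold change with its standard error, a test score and p-values before and after adjustment.

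Genes were filtered with filterByExpr and fitted with edgeR 4.0.16 (TMM scaling, robust quasi-likelihood, 4 group means, 8 residual degrees of freedom, biological coefficient of variation 0.233), with Benjamini-Hochberg adjustment over 14621 genes and a threshold of 0.05. Each standard error was derived as the size of the log2 fold change divided by the square root of F. The 6 comparisons were nicotine in WT, in KO, averaged and their difference, and KO against WT in each exposure. Log2 CPM used a prior count of 2. Scores are mean log2 CPM of a list. Correlations used 100000 permutations. Promoters came from RefSeq (GRCm38.p6), not the authors' build, and GENCODE M21 gave exon lengths. Within groups, chi-square per degree of freedom between libraries ran from 8.28 to 68.6, so no library repeated another. The fit was tested on simulated data.

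Genes named from the lists were those called or, as none was, the 3 with the smallest unadjusted p for nicotine and a mean of at least 1 CPM. A few further list genes of interest (Vcan, Timp3, Lrp1, Furin, Thsd4, Adamts8, A2m and the neutrophil gene S100a9) were named after their values were seen. One gene of the likeness ranking is not reported here. The members and lists were chosen with earlier results of these data known. Alternatives were DESeq2 1.42.0, limma 3.58.1 voom, other size factors, no low-count filter, only the compared groups, an adipocyte covariate and leaving out each library. Software was R 4.3.3 and Python 3.11.15 with matplotlib 3.10.9, numpy 2.4.6, pandas 2.3.3 and scipy 1.17.1.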

Additional observations from a re-analysis of the deposited data

How the results depend on the processing

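Of 656 alternative values for the 48 log2 fold changes of the 8 members, 649 moved by less than the spread between replicates and 7 by more, 5 of them for Adamts4 or Adamts12 without WT air 8 and 2 for Adamts2 and Adamts15 with the adipocyte covariate. Some of the 649 changed sign, so a small move does not mean a stable direction. Averaged over genotypes, Adamts2 did so in 5 of 17 alternatives and Adamts5 in 4 of 17. No member was called by edgeR under any setting or left-out library (0 to 0), nor by limma voom. DESeq2 called 1 member, Adamts1, for nicotine in WT, for KO against WT in nicotine and for the average. Genes called with nicotine in WT numbered 3 by edgeR and 3 by limma voom, against 115 with DESeq2, 7 with relative log expression size factors, 21 without the low-count filter, 0 with the adipocyte covariate and 0 with the WT libraries alone, and 0 to 34 when 1 library was left out (34 when WT air 8 was left out, 14 for WT nicotine 12, 1 for WT nicotine 6, and 0 for WT air 9 or WT nicotine 11). For KO against WT in nicotine the count was 1 by edgeR, 87 with DESeq2, 6 with those size factors, 7 without the filter and 9 with the covariate, and 0 to 4 with 1 library left out (4 without WT nicotine 12, 2 without KO nicotine 3, 0 without KO nicotine 4 or 5). For the average it was 0 by edgeR, 96 with DESeq2 and 6 without the filter, and 0 to 38 with 1 library left out (38 for WT air 8, 4 for WT air 10, and 3 for WT nicotine 12 or KO nicotine 5). For the difference it was 0, with 9 by DESeq2 and 1 without the filter, and 0 to 1 with 1 library left out (1 for WT nicotine 12 or KO nicotine 3). For KO against WT in air it was 0, with 13 by DESeq2 and 2 in a fit to the air libraries alone, and 0 to 0 with 1 library left out. For nicotine in KO it was 0 under each setting run (0 to 0). The causes were not tested. Fits to only the compared groups were not run for the average or the difference, which need all groups. No paired analysis was possible because the library numbers are unique and no groups share one.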
